A study of Mus musculus with 4 samples.

Results

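The vomeronasal type 1 receptors (V1Rs) are a family of mouse pheromone receptors, taken here as every gene of the deposited count table whose symbol in the mouse annotation GENCODE vM21 starts with Vmn1r. The rule found 210 members among 21936 gene identifiers, and it used no measured value. Their RNA was compared between 2 TSSK2-IP and 2 control IgG-IP libraries, to ask whether V1R mRNAs were recovered with TSSK2, a testis-specific serine/threonine kinase and a component of the late chromatoid body of elongating spermatids. All 4 libraries came from germ cell suspensions, made by digestion and straining of the testes of adult C57BL/6 mice and cross-linked with paraformaldehyde. The low-speed pellet of the sonicated lysate was precipitated either with an antibody against TSSK2 or with mouse IgG. No mutation was stated for the mice, and the antibody was the only labelled difference. The cells were not sorted by stage, although TSSK2 itself is a protein of late spermatids. Directional libraries were made without removal of ribosomal RNA. The sources did not say whether the replicates came from separate animals, so the p-values measure only the spread between these samples, which may be technical.

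V1Rs are G protein-coupled receptors of the sensory neurons in the apical layer of the vomeronasal organ, where each neuron is known to express a single V1R gene or very few. Ligand binding activates a G protein with the alpha subunit Gnai2, and phospholipase C then opens the cation channel Trpc2. The genes lie in clusters that arose by tandem duplication, and most have a coding sequence uninterrupted by introns. Transcripts of chemosensory receptors are also known from male germ cells.

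Family members are so alike in sequence that a read can be assigned to 1 receptor only where the sequences differ. The 2 members that passed the thresholds given further on, Vmn1r31 and Vmn1r222, are shown over 150 coding bases beside the member with the most similar coding sequence (sequences from the GRCm38.p6 genome, written 5′ to 3′ on the coding strand; capitals mark the bases that differ within a pair). In each pair the stretch of 150 bases with the fewest differences was chosen, so the rest of the coding sequence is less alike. Vmn1r31 and Vmn1r17 are shown from coding base 1 to coding base 150. They lie on the minus strand of chromosome 6, at chr6:58472729-58472878 and chr6:57361229-57361378.
Vmn1r31: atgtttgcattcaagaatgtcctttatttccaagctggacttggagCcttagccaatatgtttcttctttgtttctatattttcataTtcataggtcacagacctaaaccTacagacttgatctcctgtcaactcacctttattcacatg
Vmn1r17: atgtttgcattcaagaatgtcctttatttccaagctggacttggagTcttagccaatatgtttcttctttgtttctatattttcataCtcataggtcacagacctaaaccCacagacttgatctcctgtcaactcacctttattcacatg
The pair differed at 3 of these 150 bases and had 94.8% identity over the aligned coding sequence. Vmn1r222 and Vmn1r188 are shown from coding base 40 to 189. They lie at chr13:23232853-23233002 on the minus strand and chr13:22087917-22088066 on the plus strand.
Vmn1r222: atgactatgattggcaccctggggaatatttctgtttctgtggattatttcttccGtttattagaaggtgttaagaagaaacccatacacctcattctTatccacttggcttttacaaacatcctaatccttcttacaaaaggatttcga
Vmn1r188: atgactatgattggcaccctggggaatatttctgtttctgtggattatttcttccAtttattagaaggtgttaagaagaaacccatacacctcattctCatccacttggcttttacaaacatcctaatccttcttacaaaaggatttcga
This pair differed at 2 of the 150 bases, with a coding identity of 93.5%. The relatives had low counts, and in neither of them were both TSSK2-IP libraries above both controls. Vmn1r17 had 0 and 3 counts in TSSK2-IP against 2 and 8 in the controls, and Vmn1r188 had 3 and 7 against 14 and 25.

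All 210 members carry the biotype protein-coding, and the 118 annotated Vmn1r pseudogenes had no row in the table used here. Chromosome 7 holds 103 of the members, chromosome 6 holds 51, chromosome 13 holds 36 and chromosome 17 holds 14. The remaining 6 are on chromosomes 1, 4, 18 and X and on an unplaced scaffold. Their coding lengths were alike, from 867 to 1152 bases with a median of 921, and 208 had a single coding exon. Their annotated exons were not alike in length and ran from 888 to 18544 bases, so levels are compared between genes only per kb of exons.

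The libraries held between 3938922 and 9858941 counts, and the deepest was control IgG-IP replicate 1. Levels are given as normalized CPM, the counts scaled to library size after edgeR's TMM scaling. A count of 3, taken as the limit of detection, corresponded to between 0.468 and 0.689 CPM, a limit that covers counting error only. The control libraries were further apart than the TSSK2-IP libraries. Over 8780 genes above 10 CPM, log2 differences between the replicates had an SD of 0.959 in the controls and 0.263 in TSSK2-IP. RNA of the cell types of the testis was checked with short marker lists. The 7 germ cell markers were all tested, with summed levels of 3160 and 2870 CPM in TSSK2-IP and 5030 and 3420 CPM in the controls. Sertoli cell markers (5 genes, 3 tested) summed to 25.3 and 16.0 CPM against 6.08 and 17.5 CPM, and Leydig cell markers (5 genes, 4 tested) to 30.9 and 31.6 CPM against 12.8 and 24.8 CPM. The 3 macrophage markers (2 tested) summed to between 11.7 and 20.9 CPM and the 3 peritubular markers (2 tested) to between 13.6 and 26.2 CPM over the 4 libraries. The 4 erythroid markers (none tested) summed to at most 4.56 CPM. No marker passed the thresholds, and the part of these cells in any V1R result was not tested. The libraries hold RNA recovered by precipitation, so these sums describe recovered RNA and do not measure the cells in the suspension.

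Most V1R mRNAs were at or near the limit of detection in every library. No count was found for 36 members in any library, and 69 members, these included, had at most 3 counts in each of the 4. TSSK2-IP replicates 1 and 2 had 71 and 104 members above 3 counts, the controls had 105 and 119, and 52 members were above 3 counts in all 4. Of the 80 members with at most 3 counts in both controls, 1 was above 3 counts in both TSSK2-IP libraries. This was Vmn1r20, with 4 and 7 counts against 2 and 2. Of the 97 with at most 3 counts in both TSSK2-IP libraries, 12 were above 3 counts in both controls. These numbers rest on raw counts in libraries of unequal depth. The shares over all genes were not computed, so they describe the members only. No absence can be read from these counts, since 0 counts allow a level of up to 0.468 to 0.689 CPM depending on the library.

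Most members without a count had exons that are repeated elsewhere in the genome. Exons were read in windows of 150 bases, the length of a read, and a window was called copied where an identical window existed elsewhere in the genome on either strand. Among 35 members with no count and a value, the median share of copied windows was 100%, and 26 had at least 50% of their windows copied. Among the 174 members with a count, the median was 0.17% and 17 had at least 50% copied. Their exons also differed in length, with a median of 924 bases in members without a count and 3835 bases in members with one. In the 41 members tested, the highest share of copied windows was 6.68%, and 28 had none. How the authors' counting treated reads that map to several places is not given in the sources used here, and its part in the zeros was not tested. Coding identity to the nearest relative followed the same order, with a median of 99.9% in members without a count and 91.9% in tested members.

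**Figure D1:**
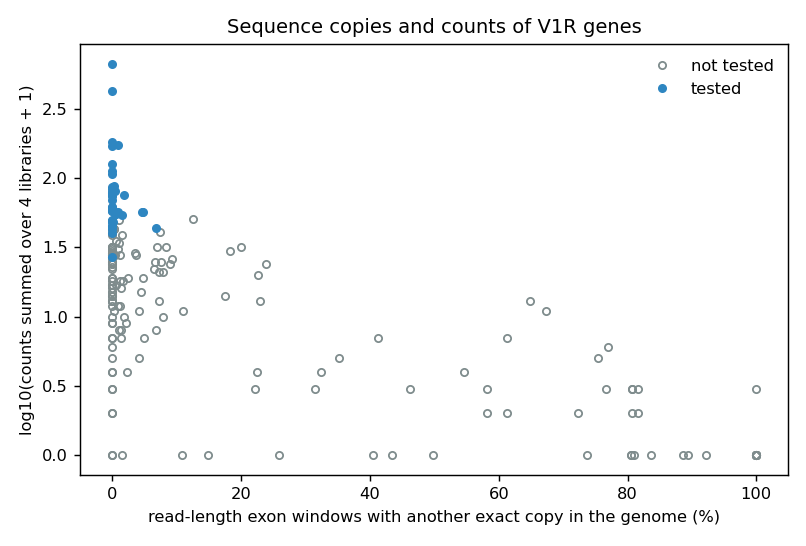
Counts of the V1R genes against sequence copies. The x axis gives the share of 150-base exon windows with another exact copy in the genome (%), the y axis log10 of the counts summed over the 4 libraries plus 1. Each point is 1 of 209 genes; filled points are the 41 genes tested, all at or below 6.68% on the x axis.

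The summed level of the family was 323 and 363 CPM in TSSK2-IP and 176 and 362 CPM in the controls. Control replicate 2 was level with the TSSK2-IP libraries, and control replicate 1 was lower than the other libraries. Without Vmn1r31 the sums were 257 and 300 CPM against 174 and 359 CPM, and without both called members 238 and 287 against 173 and 358 CPM, so that the TSSK2-IP libraries then lay between the controls. The 41 tested members alone, chosen by the filter on low counts, summed to 260 and 266 CPM in TSSK2-IP and 78.6 and 177 CPM in the controls. The 169 members not tested summed to 63.0 and 96.5 CPM against 96.9 and 185 CPM, so that both controls were above both TSSK2-IP libraries. The filter asks for enough counts in 2 libraries, so a member high in 1 group alone could pass it. It scales by library size before TMM, so control replicate 1, the deepest library, needed more counts than the others. Members high in TSSK2-IP alone thus passed more easily than members high in the controls alone. Vmn1r197 (14 and 12 counts in TSSK2-IP, 6 and 7 in the controls) was tested, and Vmn1r188 (3 and 7 against 14 and 25) was not. Counts over the tested members are therefore given as a description.

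In the comparison of TSSK2-IP with control IgG-IP, 2 of the 41 tested V1R genes rose and none fell. To be called, a gene needed a log2 fold change of 1 or more in size and an adjusted p of 0.05 or less (the quasi-likelihood test of edgeR, Benjamini-Hochberg adjusted over all 14722 genes tested). Over all genes 102 were called higher, which is 0.693% of those tested, and 0 were called lower (0%). At an unadjusted p under 0.05, 9 V1R genes were higher, beside 8.34% of all genes, and 0 were lower, beside 4.89% of all genes. DESeq2 also called 0 V1R genes lower. Both TSSK2-IP libraries were above both controls in 17 of the 41 members (41.5%, against 27.3% of all genes tested). They were below both in 2 members (4.88%, against 21.6%). These shares depend on the filter, which members high in TSSK2-IP passed more easily, and they are no support for a difference of the family. Among the 169 members not tested, all with at most 29 counts in a library, 9 were above both controls and 39 below both. The share over all genes not tested was not computed, so these numbers describe the members only. The median log2 fold change was 0.40 over the tested members and -0.02 over all genes tested, and 24 members (58.5%, against 49.2%) had a value above 0. Over all 174 members with a count the median was below 0, at -0.55 with no filter and -0.63 with DESeq2. Over the tested members it was -0.11 without control replicate 1 and 0.98 without control replicate 2. Control replicate 1 was the lower of the 2 controls in 38 of the 41 members, and by at least 2-fold in 20 of them.

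**Figure D2:**
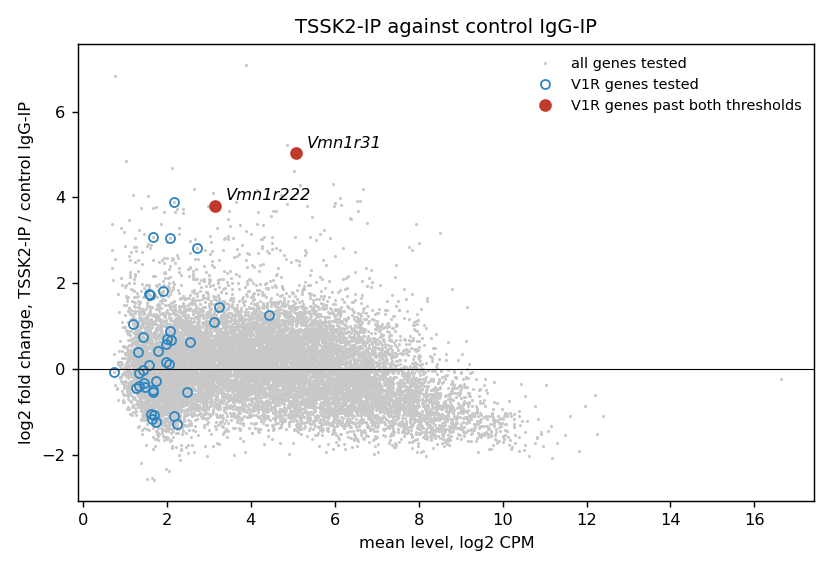
Log2 fold change of TSSK2-IP over control IgG-IP (y axis) against mean level in log2 CPM (x axis). Grey points are the 14722 genes tested, open circles the V1R genes tested and filled circles the 2 V1R genes past both thresholds, Vmn1r31 at 5.03 and Vmn1r222 at 3.80.

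Vmn1r31 (ENSMUSG00000115404) was the V1R gene with the largest difference. It lies on the minus strand of chromosome 6 from 58470941 to 58475330 (GRCm38) and is the last member of a V1R cluster. It had 321 and 329 counts in TSSK2-IP and 7 and 13 counts in the controls. As levels these were 66.5 and 62.6 CPM against 1.09 and 2.99 CPM, with means of 64.6 ± 2.79 (SD, n = 2) and 2.04 ± 1.34 CPM (SD, n = 2). Both TSSK2-IP libraries lay far above both controls, and they were closer to each other than to either control. The log2 fold change was 5.03 (SE 0.54, adjusted p = 0.00109), which ranked 4 among all genes tested. A two-sided exact permutation test of 2 against 2 libraries cannot go below p = 0.333, so it was not used as a call.

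This receptor alone made up much of the family's RNA in the TSSK2-IP libraries. Vmn1r31 took 20.6% and 17.3% of all V1R counts there, and 0.622% and 0.825% in the controls. Per kb of exons its level was 30.5 CPM in TSSK2-IP and 0.964 CPM in the controls. Its level in CPM was above that of 85.4% of all genes of the table in TSSK2-IP and of 32.0% in the controls. None of its exon windows was copied elsewhere in the genome, and no annotated exon of another gene overlapped it. It passed both thresholds in each of the alternatives in which it was tested.

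Vmn1r222 (ENSMUSG00000061022) lies on the minus strand of chromosome 13 from 23230836 to 23235947. It had 89 and 70 counts in TSSK2-IP and 7 and 5 in the controls. The levels were 15.9 ± 3.63 CPM (SD, n = 2) and 1.12 ± 0.0401 CPM (SD, n = 2), and the groups did not overlap. The log2 fold change was 3.80 (SE 0.58, adjusted p = 0.00900). Per kb of exons, the level was 5.89 CPM in TSSK2-IP and 0.416 CPM in the controls. The share of copied exon windows was 0.79%. Its call was lost with upper-quartile scaling and without either TSSK2-IP library, when its adjusted p reached up to 0.457.

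The nearest members on the same chromosomes differed from one called gene to the other. On chromosome 6, Vmn1r30 lies 27555 bases before Vmn1r31. It had 44 and 67 counts in TSSK2-IP and 2 and 13 in the controls, with both TSSK2-IP libraries above both controls. Its log2 fold change of 2.82 (SE 0.78, adjusted p = 0.157) did not pass the threshold, although it did with no filter (0.000615) and with the replicate block (0.00375). The next V1R gene on the other side, Vmn1r32, belongs to a distant cluster and had 2 and 7 counts against 14 and 5. On chromosome 13, neither neighbour of Vmn1r222 had enough counts to be tested. Vmn1r221 had 0 and 4 counts against 5 and 12, and Vmn1r223 had 5 and 4 counts against 14 and 8.

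After the called genes and Vmn1r30, the differences with the smallest p or the highest level per kb were found in Vmn1r21 and Vmn1r53, among others. Vmn1r21 had 34 and 44 counts in TSSK2-IP and 0 and 5 in the controls (log2 fold change 3.88, SE 1.01, adjusted p = 0.121). It shares 106 exon bases with Gm44114 on the opposite strand, and reads of the 2 genes can be told apart only if strand was used in counting. Vmn1r53 had 29 and 22 counts against 2 and 4 (3.08, SE 0.94, adjusted p = 0.210). For both genes all TSSK2-IP values lay above all control values. Neither was called, but in other fits of all 4 libraries Vmn1r21 passed with DESeq2 (adjusted p = 0.0349), with no filter on low counts (0.000189) and with the replicate number as a block (0.00221), and Vmn1r53 with no filter (0.0295).

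Another 5 receptors had higher values in both TSSK2-IP libraries and were not called. Vmn1r5 had 28 and 41 counts in TSSK2-IP and 1 and 7 in the controls (log2 fold change 3.04, adjusted p = 0.200), and it passed with no filter (0.00726) and with the replicate block (0.0259). Vmn1r224, the first member of the chromosome 17 cluster, had 73 and 59 counts against 18 and 31 (1.43, adjusted p = 0.306). Vmn1r43 had 135 and 169 counts against 37 and 86 (1.25, adjusted p = 0.332). These 3 genes had no overlap between groups on the CPM scale, but control replicate 1 was well below control replicate 2 in each. Vmn1r43 shares 153 exon bases with Vmn1r42 on the same strand. Vmn1r234 had 23 and 30 counts against 10 and 6 (1.81, adjusted p = 0.342), and Vmn1r22 had 19 and 22 against 8 and 5 (1.74, adjusted p = 0.389). In these last 2 the controls were close to each other on the CPM scale. In 9 of the 41 members (22%, against 4.01% of all genes tested) the lower TSSK2-IP library had 2-fold the level of the higher control or more. A member with low control counts could pass the filter through its TSSK2-IP counts alone, so this share describes the tested members only.

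**Figure D3:**
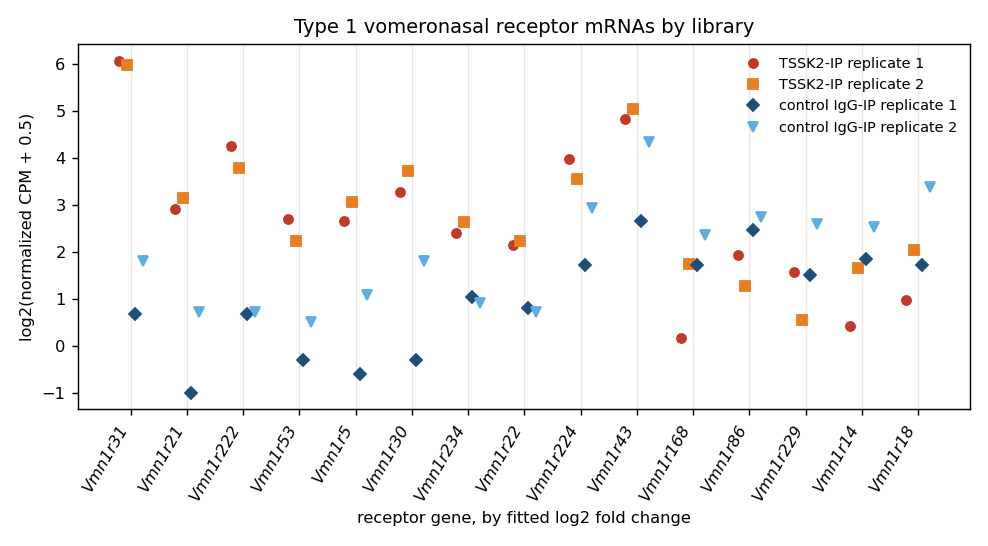
Level of the named V1R genes in each library, as log2 of normalized CPM plus 0.5, ordered by fitted log2 fold change. Each symbol is 1 library. Vmn1r31 stands apart in TSSK2-IP at 66.5 and 62.6 CPM, and in the 5 genes at the right, with log2 fold changes from -1.29 to -1.06, the controls tend to lie higher.

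No tested V1R gene was called lower, and neither was any other of the 14722 genes tested. This says nothing of the members that were not tested. The 5 V1R genes with the smallest p among those lower in TSSK2-IP were at low counts. Vmn1r18 had 7 and 19 counts in TSSK2-IP against 18 and 43 in the controls (log2 fold change -1.29, adjusted p = 0.473). Vmn1r86 had 16 and 10 against 32 and 27 (-1.09, adjusted p = 0.490), and Vmn1r14 had 4 and 14 against 20 and 23 (-1.23, adjusted p = 0.520). Of the 41 tested members, the last 2 were the only ones with both TSSK2-IP levels below both controls. Vmn1r86 also shares exon bases with Gm45436 on the opposite strand. In Vmn1r229 (12 and 5 counts against 15 and 24) and Vmn1r168 (3 and 15 against 18 and 20) the groups overlapped, with adjusted p of 0.552 and 0.605. Vmn1r168 had the closest relative of any tested member, with 98.6% coding identity to Vmn1r177.

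Per kb of exons the order of the levels changed between the groups. In TSSK2-IP, Vmn1r31 was followed by Vmn1r222, Vmn1r30 at 5.45 CPM per kb, Vmn1r53 at 4.54 and Vmn1r21 at 4.30. The median over the 41 tested members was 0.493 CPM per kb there. In the controls the same members had 0.408 CPM per kb in the median and the highest was Vmn1r65 at 1.09, so that no member stood apart. From Vmn1r222 to Vmn1r21, the replicates of each gene in this TSSK2-IP order overlapped with those of the next.

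The position of the members was described next. Members less than 1 Mb apart were taken as a cluster. In the chromosome 6 cluster from Vmn1r4 to Vmn1r31, between 56924015 and 58475330, 10 of 28 members were tested. Of these 10, 8 had a log2 fold change above 0, 4 had an unadjusted p under 0.05 and 1 was called, with a median log2 fold change of 1.21. The summed level of this cluster was 118 and 126 CPM in TSSK2-IP and 25.6 and 62.7 CPM in the controls, with both TSSK2-IP libraries above both controls. Without Vmn1r31 the other 27 members summed to 51.8 and 63.6 CPM against 24.5 and 59.7 CPM, and the groups overlapped. The cluster also held 2 of the genes with a low value in TSSK2-IP, Vmn1r14 and Vmn1r18, which were not called. Whether its members moved together was not tested. The first annotated gene of the table after Vmn1r31 outside the family, Abcg2, a membrane transporter, was chosen for its place after its values were seen. It starts 109192 bases further on and had 258 and 372 counts in TSSK2-IP against 235 and 191 in the controls (log2 fold change 0.63, SE 0.40, adjusted p = 0.494).

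**Figure D4:**
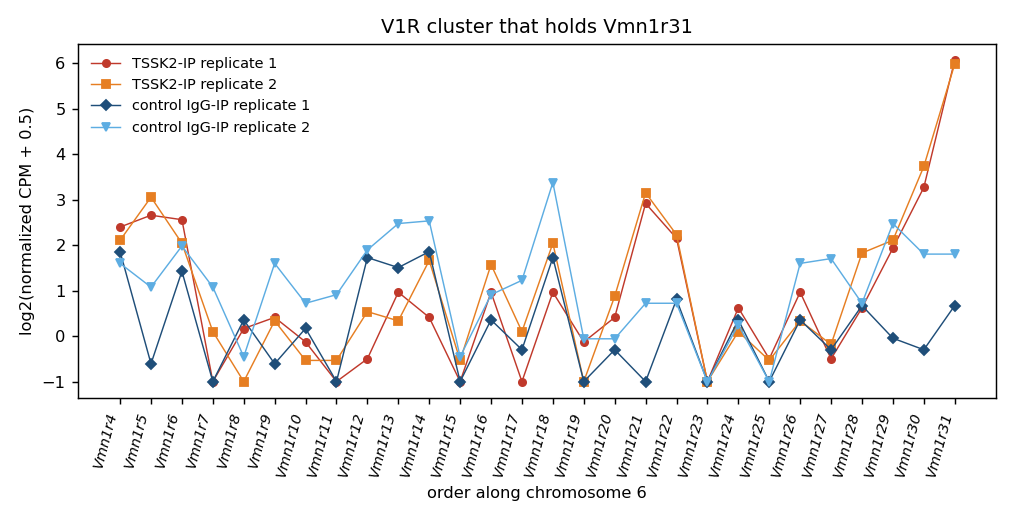
Levels along the chromosome 6 cluster from Vmn1r4 to Vmn1r31, as log2 of normalized CPM plus 0.5 (y axis), for the 28 members in order of position (x axis, not to scale). Each line is 1 library. High TSSK2-IP values stand at some genes, such as Vmn1r5, Vmn1r21 and the adjacent Vmn1r30 and Vmn1r31. Members near the limit of detection, such as Vmn1r7 and Vmn1r23, lie between some of these.

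The other clusters were described in the same way. On chromosome 17, 5 of the 14 members from Vmn1r224 to Vmn1r237 were tested, with 4 above 0 and a median log2 fold change of 0.74. Their cluster summed to 37.5 and 33.9 CPM in TSSK2-IP and 18.6 and 34.5 CPM in the controls, so the groups overlapped. On chromosome 6 the cluster from Vmn1r40 to Vmn1r54 had a median of 0.59 over 4 tested members. The chromosome 13 cluster, which holds Vmn1r222, had a median of -0.02 over 7 of 36 members. Its sums of 44.6 and 57.3 CPM in TSSK2-IP lay between those of the controls, 38.2 and 73.5 CPM. On chromosome 7 the largest cluster, from Vmn1r91 to Vmn1r183, held 65 members, of which 31 had no count in any library and 3 were tested. It summed to 15.8 and 20.2 CPM in TSSK2-IP and 22.8 and 35.4 CPM in the controls. Differences between clusters were not tested.

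No gene of a list drawn up for signalling in chemosensory neurons, and not limited to partners of V1Rs, passed the test. Of 13 listed genes (G protein subunits, phospholipase C, ion channels, receptor chaperones and the olfactory marker protein Omp), 8 were tested, 0 were called in either direction by edgeR, and 0 had an unadjusted p under 0.05. DESeq2 also called 0. Their median log2 fold change was 0.15, with 5 values above 0 and 3 below. The receptor partner Gnai2 had 26.3 and 16.7 CPM in TSSK2-IP and 40.6 and 20.2 CPM in the controls, where the groups overlapped (log2 fold change -0.50, SE 0.45, adjusted p = 0.622). Trpc2, the transduction channel of these neurons, had 0 counts in all 4 libraries, and Omp had 0 and 3 counts against 0 and 8. Gng8, a G protein gamma subunit of vomeronasal neurons, had 19 and 21 counts in TSSK2-IP and 9 and 5 in the controls (1.61, adjusted p = 0.412). The 4 markers of vomeronasal neurons (Omp, Trpc2, Gnai2 and Gng8), all from this list, summed to 30.3 and 21.3 CPM in TSSK2-IP against 42.0 and 23.2 CPM. Most of each sum was Gnai2, so the sums are no separate check for such neurons.

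The fit with each library left out showed which V1R values rest on 1 library. Vmn1r31 kept a log2 fold change between 4.43 and 5.81 over 9 alternatives. In the fits of all 4 libraries its highest adjusted p was 0.014, with upper-quartile scaling in edgeR. For Vmn1r222 the log2 fold change stayed between 3.55 and 4.02. Without control replicate 1, 6 members were called higher (Vmn1r5, Vmn1r21, Vmn1r30, Vmn1r31, Vmn1r53 and Vmn1r222) and 2 lower (Vmn1r18 and Vmn1r217), while over all genes 805 were called higher and 318 lower. Without control replicate 2, 15 members were called higher and 0 lower, while 2853 and 2637 of all genes were called. The number of calls thus moved with the choice of control library for V1R genes and for all genes.

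**Figure D5:**
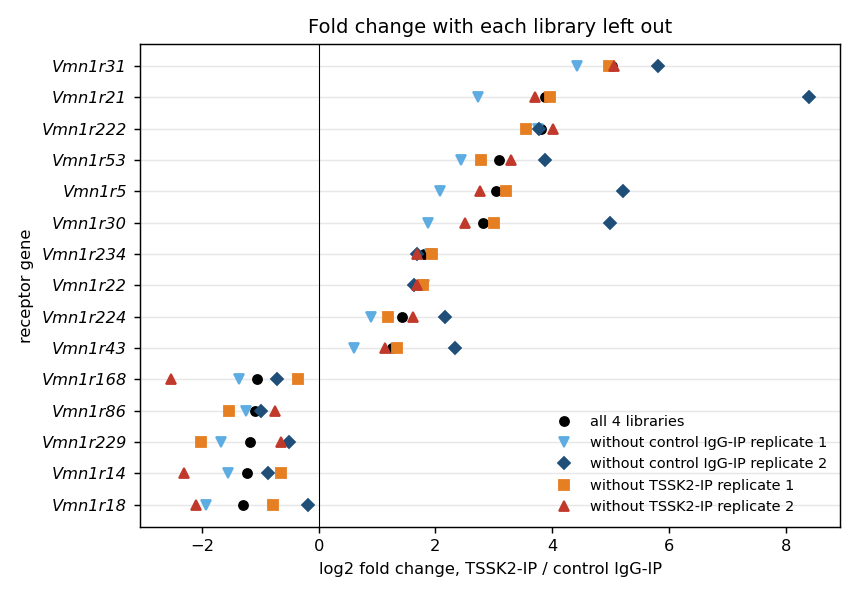
Log2 fold change of TSSK2-IP over control IgG-IP (x axis) for the named V1R genes (y axis), with all 4 libraries and with each library left out. Vmn1r31 and Vmn1r222 have values of 3.55 or more in all fits. Vmn1r21 has 0 counts in control replicate 1, so its value without control replicate 2 depends on the prior count and is no measure of size.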

How the data were processed

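Per the submitters' processing notes, the authors used Trimmomatic 0.39 for trimming, STAR 2.7.10a for alignment to GRCm38 and featureCounts 2.0.3 for counting per gene. They deposited raw counts, in whole numbers and without normalization. The strand setting of the counting and the treatment of reads with several positions are not given in the sources used here. Symbols were taken from GENCODE vM21, which held 21894 of the 21936 identifiers.

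Counts were fitted with edgeR 4.0.16 in R 4.3.3 (filterByExpr, TMM, glmQLFit, glmQLFTest; common dispersion 0.135). The SE of a log2 fold change is its size divided by the square root of its F value. The fit was also run on simulated counts with the same spread in both groups. The spread of the real groups was unequal, so that run is no check of it. The DDX4-IP libraries of the study were not analysed here. Each library was left out in turn, and the fit was repeated with upper-quartile scaling, with the size factors of DESeq2, with 2 other filters, with a replicate block and in DESeq2 1.42.0. Coding sequences were compared with BLAST+ 2.17.0.

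The members, gene lists and tests were chosen with earlier results of these data known. The named genes were those called, the 10 with the smallest p among the higher and 5 among the lower, the 5 with the highest CPM per kb, the neighbours of called genes, and Gnai2, Trpc2 and any signalling gene with an unadjusted p under 0.05. Other genes named were chosen after their values were seen.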

Additional observations from a re-analysis of the deposited data

How the results depend on the processing

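With DESeq2's size factors 2 V1R genes were called higher, as in the report, and with DESeq2 itself 3. The count was 1 (Vmn1r31) with upper-quartile scaling, 6 with no filter on low counts and 5 with the replicate block. It was 0 with at least 10 counts in every library, a filter that left 14 members and neither called gene. Over all genes, 20 were called higher with upper-quartile scaling, 139 with DESeq2, 283 with no filter, 29 with the stricter filter and 274 with the replicate block, against 102 in the report. Leaving out each library in turn gave 1 to 15 V1R genes called higher, 0 to 2 called lower, a median log2 fold change from -0.11 to 0.98 and 0 to 2 signalling genes called (Ano1 and Gnb1, without control replicate 2). Without either TSSK2-IP library only Vmn1r31 was called. A fit that leaves out a library assumes that the lone sample varies like the other group. The median was -0.63 with DESeq2 and -0.55 with no filter, both over 174 members. Over the 41 members of the main comparison it was 0.33 and 0.38. Of 138 values of 15 named genes under the alternatives, none changed sign. These genes were chosen by their values in the main fit, and the alternatives use the same libraries, so this is a description and no separate check. Vmn1r222 lost its call in 3.

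The replicate numbers do not show a pairing in the labels. The authors' precipitation method split a lysate in equal parts between beads with TSSK2 antibody and beads with IgG. A pairing is therefore possible, but whether libraries with the same replicate number share a lysate is not stated. Replicate differences correlated by 0.126 between the groups over tested genes, with 2 pairs only, and the block raised the V1R calls to 5 (Vmn1r5, Vmn1r21, Vmn1r30, Vmn1r31 and Vmn1r222).

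Of the 210 members, 169 had too few counts to be tested with 2 libraries a group, and the smallest difference detectable in them was not estimated.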

Other observations

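Vmn1r198, a member of the chromosome 13 cluster, was singled out after its values were seen, because its TSSK2-IP replicates were far apart. It had 0 and 24 counts in TSSK2-IP and 14 and 11 in the controls.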
